A study of Mus musculus with 36 samples.

Results

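RNA from the nucleus accumbens was compared with RNA from the striatum of wild-type mice. The comparison took the 3 libraries labelled WT Nac and the 3 labelled WT STR, 6 of the 36 libraries of the series. They were chosen by region and genotype label, and WT Nac 2 was set apart for its midbrain markers. All 6 came from C57 mice aged 6 to 7 weeks with the wild-type (WT) genotype. The series also holds mice of the labels' Ki type (KI), a knock-in whose base change lies in Maoa according to the series title, and it sampled 6 brain regions labelled HP, PFc, Nac, STR, SN and VTA. Nac is read here as nucleus accumbens and STR as striatum, because the labels do not spell out either. How each region was dissected, and whether libraries held 1 animal or a pool, is not given in the sources used here. Since the labels do not say that the libraries of a group came from separate animals, every p-value below measures the spread between libraries, which may be technical.

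The nucleus accumbens is the ventral part of the striatum. Like the dorsal striatum it is made mostly of inhibitory projection neurons, which fall into a direct pathway class that carries the dopamine receptor Drd1 and an indirect pathway class that carries Drd2. The ventral part is known for its links to reward and feeding, for input from limbic cortex, amygdala and hippocampus, and for peptides such as CART, while the dorsal part receives motor and sensory input. The lateral ventricle with its choroid plexus, the tissue that secretes cerebrospinal fluid, lies along the medial face of the dorsal striatum, and the thalamus lies behind and medial to it. In bulk tissue, fewer cells of a type and less RNA per cell cannot be told apart.

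Depth was even, at 17316992 to 18374034 estimated counts per library. The 22 genes shared by both projection neuron classes were checked first. Rgs9, a regulator of G protein signalling enriched in striatal neurons, stood at 190.2 and 166 CPM, which is the count over the total of its library, in WT Nac 1 and 3 and at 355, 109.5 and 184 CPM in WT STR 1 to 3. The library labelled WT Nac 2 had 20.7 CPM. Its Drd1 level was 2.88 CPM, against 117 and 150 CPM in the other WT Nac libraries, and its Adora2a level, the adenosine receptor of indirect pathway neurons, was 1.30 CPM against 177 and 186 CPM. In the same library the dopamine transporter Slc6a3 was at 192 CPM, against 0.452 and 0.462 CPM, and Th, which makes the precursor of dopamine, was at 112 CPM, against 3.73 and 10.7 CPM. The 16 markers of midbrain dopamine neurons summed to 1308 CPM in it with none at 0, and to 174 to 271 CPM in the other 5 libraries with 1 to 4 at 0. Tph2, which makes the precursor of serotonin, was at 130 CPM in that library and at 0.490 to 1.19 CPM in the others. The library labelled WT Nac 2 therefore goes against its label, and each result is given with all 6 libraries and with the 5 that remain without it. Where WT Nac 2 lies on the side of WT Nac 1 and 3 below, it does not count as a further accumbens replicate. Across all genes, log2 CPM values correlated at 0.981 between WT Nac 1 and 3, at 0.977 to 0.980 among WT STR libraries and at 0.923 to 0.938 between WT Nac 2 and any other library.

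**Figure D1:**
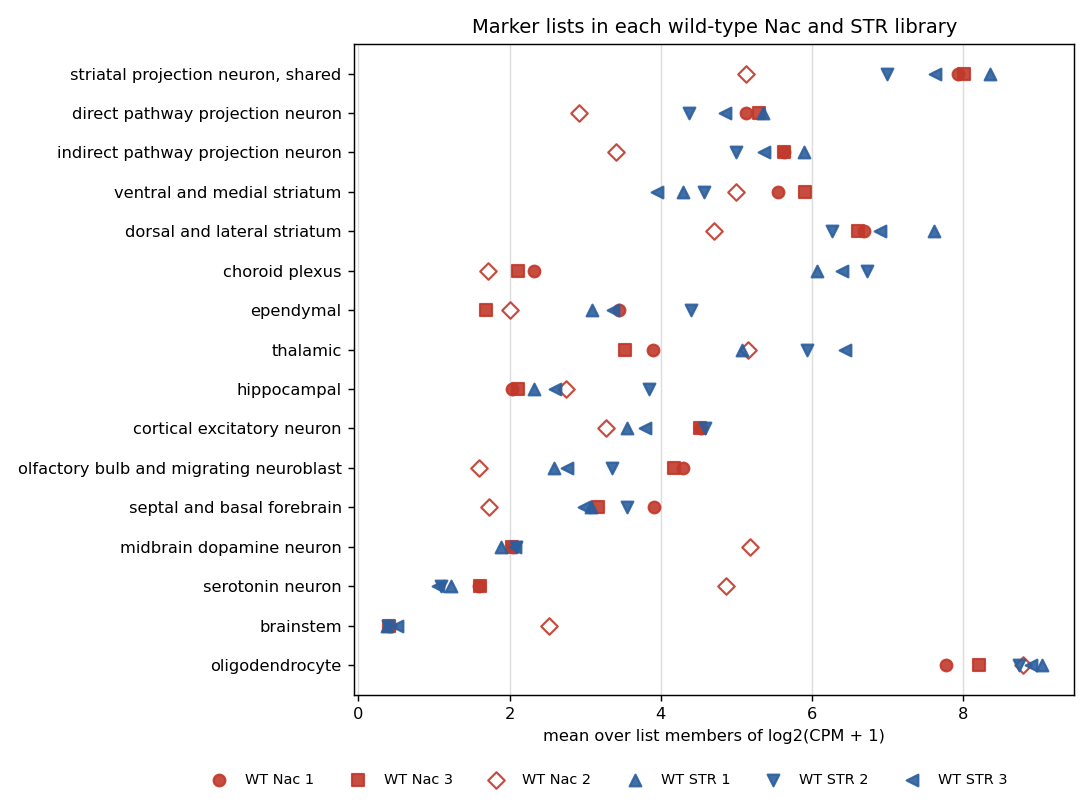
Mean over list members of log2(CPM + 1) for 16 marker lists in each of the 6 libraries. Red marks are WT Nac (the open diamond is the library labelled WT Nac 2) and blue marks are WT STR. WT Nac 2 sits below every other library on the shared striatal list (5.13 against 6.99 to 8.36) and above them on the midbrain dopamine list (5.19 against 1.89 to 2.08), and all 3 Nac libraries sit below 2.4 on the choroid plexus list while the STR libraries sit above 6.0.

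Leaving out WT Nac 2 changed how many genes passed the test. With 6 libraries, edgeR's quasi-likelihood test at a Benjamini-Hochberg adjusted p under 0.05 called 189 of 14567 genes (1.3%), 39 higher and 150 lower in Nac, and DESeq2 called 863 (5.45%), 397 higher (2.51%) and 466 lower (2.94%). Without WT Nac 2 it called 1133 of 14746 genes (7.68%), 464 higher (3.15%) and 669 lower (4.54%), and DESeq2 called 2076 (13.2%), 984 higher (6.26%) and 1092 lower (6.95%). All 189 calls of the 6-library fit were also made with 5 libraries in the same direction, where they formed 16.7% of the calls. An unadjusted p under 0.05 was reached by 15.9% of genes with 6 libraries and 25.7% with 5. The groups did not overlap in 21.3% of genes with 6 libraries (8.7% higher and 12.6% lower in Nac) and in 45.6% with 5 (19.4% and 26.2%). The 6-library count was 103, 61, 78, 62 and 41 without WT Nac 1, WT Nac 3, WT STR 1, WT STR 2 and WT STR 3. The 5-library count was 175 without WT Nac 1, 91 without WT Nac 3 and 548 without WT STR 2. No call of either fit took the opposite sign on leaving out any library. Where the groups do not overlap, leaving out a library could hardly turn the sign, so this says little about stability. Below, a log2 fold change is Nac over STR from edgeR without WT Nac 2, with adjusted p-values over all genes tested, unless 6 libraries are named. Of 91 named genes called with 5 libraries, 27 were also called with 6, 34 without WT Nac 1, 21 without WT Nac 3, and 66 to 77 without 1 of the STR libraries. Named genes that stayed called on leaving out each of the 5 libraries in turn were the rises Ccn3, Dkkl1, Gda, Lypd1 and Ndst4, the falls Shox2 and Pvalb, and the 11 falls, given with the genes close to 0 in Nac, that were called under every alternative run.

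Genes known to mark the ventral and medial striatum were higher in Nac. Of a list of 20, 12 rose and none fell, beside 3.15% and 4.54% of all genes tested, and the median log2 fold change was 1.30 (all genes −0.02). With 6 libraries 4 of the 20 rose (0.268% of all genes) at a median of 1.24. Without WT Nac 3 none of the 20 passed edgeR's test (13 had an unadjusted p under 0.05), although all 20 were higher at a median of 1.05, and without WT Nac 1, where 1 Nac library is likewise left, 5 passed. The list was assembled from genes known for this pattern, with earlier results of these libraries in view, so its direction is not independent evidence.

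Peptide genes of the list are described first. Cartpt (gene 27220, chromosome 13, 99898483 to 99910179 in GRCm38.p6) encodes CART, a peptide of accumbens projection neurons that acts on feeding and reward. It stood at 29.9 and 59.9 CPM in WT Nac 1 and 3, at 244 CPM in WT Nac 2, and at 6.47, 6.80 and 2.01 CPM in WT STR 1 to 3. Every Nac library was above every STR library, and WT Nac 2, the library with midbrain markers, was the highest. The log2 fold change was 3.16 (SE 0.49, adjusted p = 0.0173), and with 6 libraries 4.47 (adjusted p = 0.0705). Nts (gene 67405, chromosome 10, 102481756 to 102490418), the precursor of neurotensin, was at 31.4 and 37.7 CPM in WT Nac 1 and 3, 10.2 CPM in WT Nac 2, and 9.22, 3.27 and 5.91 CPM in STR. It rose by 2.51 (SE 0.376, adjusted p = 0.0159), while with 6 libraries the value was 2.15 (adjusted p = 0.142).

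The starts of both peptide genes are shown because Cartpt holds a complete cyclic AMP response element, TGACGTCA, the site bound by CREB-family factors, and Nts the half-site TGACG. The 250 bases before a RefSeq transcript start (GRCm38.p6) are given on the strand of the gene. For Cartpt this start lies inside the gene interval given above, and the part of the gene further upstream was not searched. Capitals mark the half-site on either strand, which in Cartpt are 2 overlapping copies that form the complete element. The Cartpt element begins 112 bases before the start, and the Nts half-site begins 166 bases before it.
Cartpt promoter, chr13:99900684-99900933, minus strand: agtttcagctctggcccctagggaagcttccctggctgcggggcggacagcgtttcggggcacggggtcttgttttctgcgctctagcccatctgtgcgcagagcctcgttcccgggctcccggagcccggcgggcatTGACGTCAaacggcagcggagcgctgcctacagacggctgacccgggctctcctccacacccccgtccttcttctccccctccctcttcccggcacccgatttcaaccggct
Nts promoter, chr10:102490419-102490668, minus strand: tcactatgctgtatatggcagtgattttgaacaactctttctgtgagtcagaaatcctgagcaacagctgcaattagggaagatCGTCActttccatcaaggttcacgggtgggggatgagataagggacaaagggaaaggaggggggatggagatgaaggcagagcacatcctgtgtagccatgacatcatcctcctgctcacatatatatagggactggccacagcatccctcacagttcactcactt
TGACGTCA, searched on both strands, was present in 1.77% of 27025 genes with a promoter in the RefSeq table, in 14 of 345 genes called higher in Nac (4.06%) and in 4 of 516 genes called lower (0.775%). The half-site, which the complete element contains, was in 19.8%, 24.9% and 19.2% of the same sets. Of the 15 ventral list genes with a promoter in the table, 8 held the half-site and 2, Cartpt and Zdbf2, the complete element. These matches describe letters in the window, and no test was made of them.

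Further peptides rose beyond the list. Of 14 tested neuropeptide genes, Cartpt, Nts, Crh and Vip rose by edgeR's test (3.15% of all genes rose), and none fell, at a median of 0.76. DESeq2 called 1 lower, Trh, the precursor of thyrotropin-releasing hormone (−1.11, edgeR adjusted p = 0.062). Crh, the precursor of corticotropin-releasing hormone, was at 7.47 and 10.6 CPM in WT Nac 1 and 3, 4.51 in WT Nac 2, and 1.91, 1.47 and 0.613 in STR (log2 fold change 2.77, adjusted p = 0.0178). Vip, a peptide of a class of cortical and striatal interneurons, was at 6.56, 8.30 and 9.18 CPM in WT Nac 1 to 3 and 2.42, 3.32 and 1.45 in STR (1.74, adjusted p = 0.0366). For both, every Nac library was above every STR library, yet neither passed with 6 libraries (adjusted p = 0.0668 and 0.0626). Scaled per length, the means over WT Nac 1 and 3 were 144 TPM for Cartpt, 72.9 for Nts, 16.5 for Crh and 12 for Vip, beside 1888 TPM for Penk, the enkephalin precursor. In STR the means of the same genes in that order were 15.2, 12.1, 2.24, 3.39 and 1609 TPM.

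Receptors formed the next group. Trhr, the receptor of thyrotropin-releasing hormone (gene 22045, chromosome 15, 44195924 to 44235912), was at 9.62, 8.35 and 18.9 CPM in WT Nac 1 to 3 and at 1.07, 1.90 and 0.724 CPM in STR. The groups did not overlap, which the rule for naming the largest rises required. Trhr was the largest rise named by that rule in both fits. The log2 fold change was 3.55 (SE 0.439, adjusted p = 0.00877) and, with 6 libraries, 3.35 (adjusted p = 0.0272). Without WT Nac 3 it was 3.0 and did not pass. Drd3 (gene 13490), a dopamine receptor concentrated in the ventral striatum and its islands of Calleja, was at 5.43 and 7.39 CPM in WT Nac 1 and 3, 0.790 in WT Nac 2, and 0.394, 0.435 and 1.5 in STR. It rose by 3.05 (SE 0.547, adjusted p = 0.0245), and with 6 libraries, where WT Nac 2 lay inside the STR range, the adjusted p was 0.222. Calcr, the calcitonin and amylin receptor, was at 4.58, 7.39 and 11.8 CPM in Nac and 1.18, 1.74 and 0.390 in STR. It rose by 2.90 (adjusted p = 0.0359), and with 6 libraries by 2.87, which did not pass (adjusted p = 0.0701). Oprk1, the kappa opioid receptor, was at 18.2, 15.1 and 26.5 CPM in Nac and 10.7, 8.60 and 7.86 in STR. It rose by 1.32 (adjusted p = 0.0219), and with 6 libraries by 1.17, which did not pass (adjusted p = 0.0907). It was the 1 gene called among 8 opioid peptides and receptors (3.15% of all genes rose), at a list median of 0.54.

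Serotonin receptors included 4 that rose among 12 tested (3.15% of all genes rose), with none lower past the test by edgeR or DESeq2 and a median of 0.40. Htr4, a receptor coupled to cyclic AMP production, was at 12.5, 13.8 and 12.1 CPM in WT Nac 1 to 3 and 5.74, 4.95 and 5.46 in STR (log2 fold change 1.21, SE 0.183, adjusted p = 0.0165). It passed with 6 libraries too (1.28, adjusted p = 0.0208). Its spread within each group was narrow beside the gap between them. Htr1a, the inhibitory receptor also found on serotonin neurons, was at 21.9, 27.9 and 18.5 CPM in Nac and 4.11, 9.42 and 3.51 in STR (1.86, adjusted p = 0.0393). Htr2a rose by 1.73 and Htr1f by 2.08, the latter from levels under 2 CPM in every library. With 6 libraries, Htr4 was the 1 serotonin receptor called (0.268% of all genes rose), and none of the list was called without WT Nac 1, WT Nac 3, WT STR 1 or WT STR 3. With 5 libraries Htr4 did not pass without WT Nac 1 or without WT Nac 3.

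GABA-A receptor subunits, which form the chloride channels of fast inhibition, moved unevenly. Of 14 tested, 7 rose, Gabra2, Gabrg1, Gabrg3, Gabre and Gabrq among them (3.15% of all genes rose), none fell by edgeR's test, and the median was 0.63. Gabrg1 (gene 14405) had the smallest adjusted p, with 90.2, 59.3 and 74.0 CPM in WT Nac 1 to 3 and 31.7, 39.5 and 30.8 in STR (1.30, SE 0.159, adjusted p = 0.00856). It passed with 6 libraries (1.18, adjusted p = 0.0464) and not without WT Nac 1. Gabrd and Gabra4, subunits of extrasynaptic receptors, lay on the other side at 93.8 and 79.4 against 156, 115 and 138 CPM and at 142 and 142 against 201, 178 and 308 CPM (WT Nac 1 and 3 against STR), and neither passed edgeR's test (adjusted p = 0.0803 and 0.142). DESeq2 called Gabrd lower with 5 libraries. Of 22 glutamate receptor genes 2 rose, beside 3.15% of all genes, at a list median of 0.17. These were Gria2 and Grm5, at 0.96 and 1.07 (adjusted p = 0.020 and 0.0242). WT Nac 2 had the lowest level of both, 167 and 91.5 CPM, and neither passed with 6 libraries (0.468 and 0.453).

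Dlk1, Peg10, Zdbf2 and Dio3 are imprinted genes, which in some tissues are read from the copy of 1 parent, and are given together after their values were seen. Igf2, also counted among imprinted genes, was lower in Nac and is described below. Which parental copy was read was not measured here for any of them. Dlk1, a membrane protein of the Notch ligand family, was at 74.5, 170 and 114 CPM in WT Nac 1 to 3 and 12, 23.9 and 6.46 in STR. The log2 fold change was 2.76 (SE 0.472, adjusted p = 0.0226) and with 6 libraries 3.11 (adjusted p = 0.0454). Peg10, a gene derived from a retrotransposon, was at 109, 146 and 295 CPM in Nac and 33.8, 46.5 and 32.3 in STR (2.44, adjusted p = 0.018, and 2.33 with 6 libraries, adjusted p = 0.0454). Zdbf2 was at 57.4, 74.7 and 87.8 CPM in Nac and 33.1, 27.2 and 30.4 in STR (1.28, adjusted p = 0.017, and 1.31 with 6 libraries, adjusted p = 0.0256). The SN and VTA means were above the STR mean as well, at 191 and 193 against 14.1 CPM for Dlk1. They were 85.5 and 179 against 37.6 CPM for Peg10 and 54.2 and 71.7 against 30.2 CPM for Zdbf2. The VTA mean includes WT VTA 3, a library with striatal markers. In all 3 genes every Nac library exceeded every STR library, WT Nac 2 included. For Dlk1 and Peg10 the rule that named them with 6 libraries required this. WT Nac 2 carries midbrain markers, so its place above STR and the calls with 6 libraries do not speak for Nac alone. Without WT Nac 3 none of the 3 passed, Dlk1 did not pass without WT Nac 1, and Peg10 did not pass without WT STR 3. Dio3, an enzyme that inactivates thyroid hormone, rested on fewer reads, at 2.09 and 6.87 CPM in WT Nac 1 and 3 against 0.787, 0.544 and 0.111 CPM, and WT Nac 2 was at 0.0564 CPM (3.22, adjusted p = 0.0446, and 0.365 with 6 libraries).

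Guidance molecules and regional transcription factors gave 6 rises, Ntn1, Unc5d, Robo1, Tshz1, Lmo3 and Lmo4, and 1 fall among 29 genes, beside 3.15% and 4.54% of all genes, at a median of 0.39. Ntn1 encodes netrin 1, an attractant and repellent for growing axons, and Unc5d a receptor of the netrin-binding UNC5 family. Ntn1 was at 36.0, 52.1 and 48.3 CPM in WT Nac 1 to 3 and 16.7, 14.4 and 15.1 in STR (log2 fold change 1.47, SE 0.164, adjusted p = 0.00692). Unc5d was at 40.5, 39.8 and 38.0 CPM in Nac and 10.6, 15.9 and 12.1 in STR (1.63, SE 0.178, adjusted p = 0.00692). The SN and VTA means (WT VTA 3 included) were also above STR, at 48.7 and 51.9 CPM for Ntn1 and 29.1 and 31.3 CPM for Unc5d. Both passed with 6 libraries (1.60, adjusted p = 0.0093, and 1.65, adjusted p = 0.00843), and both missed the threshold without WT Nac 3. Nr2f2, the nuclear receptor COUP-TFII, fell by 1.68 (adjusted p = 0.0154), from 46.9, 58.2 and 83.0 CPM in STR to 19.3 CPM in both WT Nac 1 and 3. WT Nac 2 had 45.5 CPM.

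Other rises came from several lists or from none, with Wfs1 on the ventral and medial striatum list. Wfs1, an endoplasmic reticulum protein used as a marker of the accumbens and of limbic cortex, was at 285 and 344 CPM in WT Nac 1 and 3, 34.8 in WT Nac 2, and 137, 116 and 112 in STR (1.39, adjusted p = 0.00692). Gda, guanine deaminase, was at 273 and 284 CPM against 85.1, 72.8 and 56.4 CPM, with 11.8 CPM in WT Nac 2 (1.98, adjusted p = 0.00433). Both turned from non-overlapping to overlapping groups once WT Nac 2 was added (adjusted p = 0.585 and 0.505). Ndst4, an enzyme of heparan sulfate synthesis, had nearly the same level in the 3 Nac libraries, 25.2, 26.4 and 25.9 CPM, against 3.04, 4.52 and 5.02 CPM in STR (2.63, SE 0.219, adjusted p = 0.00277, and 2.66 with 6 libraries, adjusted p = 0.00353). Its mean was 25.3 CPM in SN, 19.4 CPM in VTA and 25.45 CPM in HP, so the level of WT Nac 2 was also near that of other regions. Prss12, the synaptic protease neurotrypsin, was at 8.43, 9.20 and 12.5 CPM against 2.64, 2.01 and 1.84 CPM (2.29, adjusted p = 0.00856, and 2.25 with 6 libraries, adjusted p = 0.0138). It did not pass without WT Nac 3. Of 10 genes of striosomes, the patch compartment of the striatum, Sema5b, Lypd1 and Tshz1 rose (3.15% of all genes rose), at a list median of 0.52. Of 7 genes of the matrix, the other compartment, 1 rose, the Gda given above, at a list median of 0.11. Lypd1 was at 140, 83.9 and 168 CPM in Nac and 57.8, 54.4 and 44.6 in STR (1.58, adjusted p = 0.00525). With 6 libraries the value was 1.37 and did not pass (adjusted p = 0.0701).

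**Figure D2:**
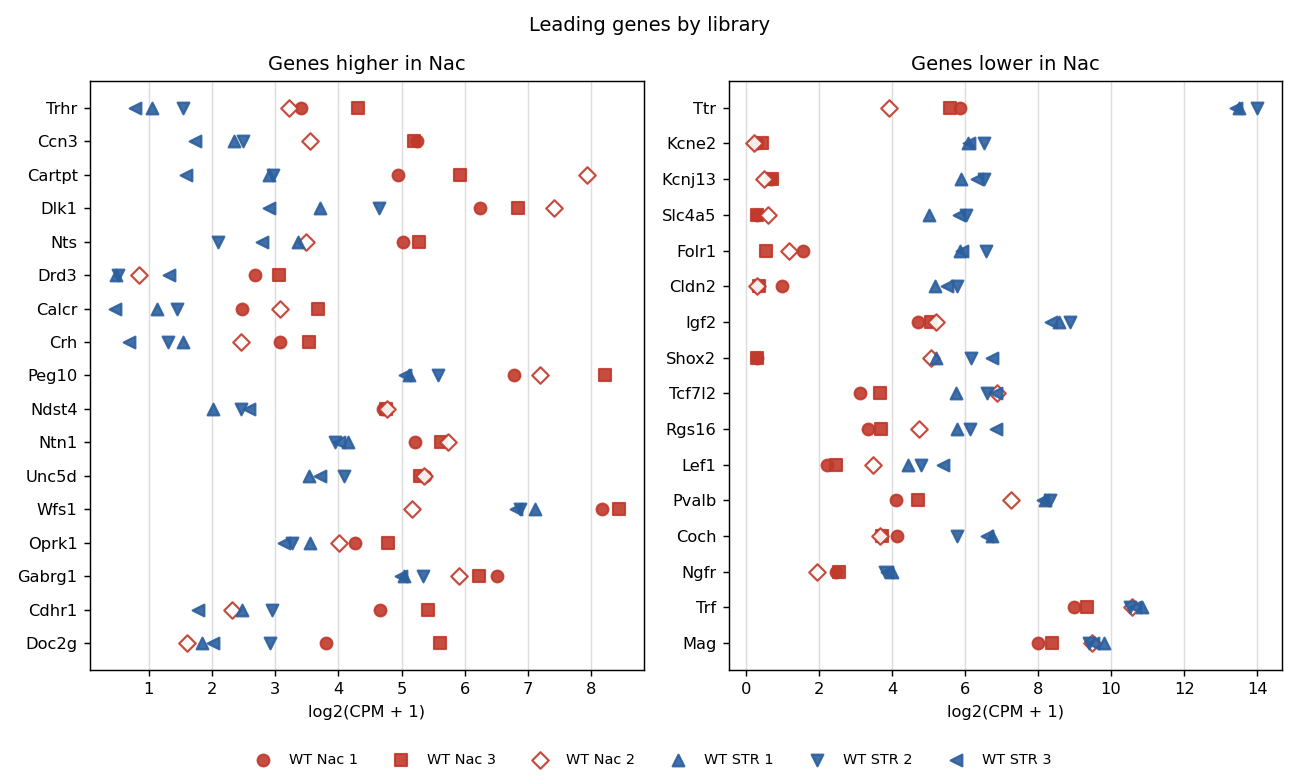
Level of 17 genes higher and 16 genes lower in Nac, as log2(CPM + 1), in each of the 6 libraries. Red marks are WT Nac (the open diamond is the library labelled WT Nac 2) and blue marks are WT STR. Trhr, Cartpt, Dlk1, Ntn1 and Unc5d keep all 3 Nac libraries above STR, whereas the open diamond falls among or beyond the STR libraries for Drd3, Wfs1, Doc2g, Tcf7l2, Trf and Mag.

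Markers of neighbouring forebrain tissue moved with these rises. Of 11 genes of the olfactory bulb and of migrating neuroblasts, the young neurons that travel to it, 10 could be tested, 9 were higher in Nac and 5 rose, Cdhr1, Doc2g, Dcx, Sox11 and Dlx2 (3.15% of all genes rose), at a median of 1.41. The list summed to 280 and 256 CPM in WT Nac 1 and 3, 47.7 CPM in WT Nac 2, and 85.6, 146 and 105 CPM in STR, with 1 member at 0 in WT Nac 2 and none elsewhere. Cdhr1, a cadherin of mitral cells and photoreceptors, was at 24.3 and 41.9 CPM against 4.56, 6.75 and 2.45 CPM (2.87, adjusted p = 0.0124). Dcx, a microtubule protein of migrating neurons, was at 23.5 and 28.5 CPM against 10.8, 10.5 and 10.5 CPM (1.31, adjusted p = 0.00692), with 9.76 CPM in WT Nac 2. With 6 libraries none of the list passed edgeR's test, 3 had an unadjusted p under 0.05 and DESeq2 called 1. On leaving out 1 of the 5 libraries, the log2 fold change was 2.45 to 3.25 for Cdhr1 and 1.71 to 3.57 for Doc2g. It was 1.19 to 1.43 for Dcx, 1.055 to 1.446 for Sox11 and 1.03 to 1.52 for Dlx2. These genes are not among the named genes that stayed called on leaving out each library in turn.

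Of 16 markers of cortical excitatory neurons, 2 rose, Tbr1 among them (3.15% of all genes rose), and the list summed to 1052 and 976 CPM in WT Nac 1 and 3, 409 CPM in WT Nac 2, and 484, 1084 and 730 CPM in STR. Fezf2 was at 0 in WT Nac 2, and no member was at 0 elsewhere. Tbr1, a transcription factor of deep cortical layers and of the olfactory bulb, was at 57.0 and 45.0 CPM against 4.56, 17.7 and 7.13 CPM (2.41, adjusted p = 0.0333). Slc17a7, the main cortical glutamate transporter of synaptic vesicles, was at 476 and 454 CPM in WT Nac 1 and 3 but also at 489 CPM in WT STR 2. The share of these tissues in any of the rises was not tested. The mean of the PFc libraries was above both the Nac and the STR mean in 263 of the 464 genes called higher (56.7%), and in 37.4% of all genes tested. Ccn3, a matricellular protein, was at 37.0 and 35.6 CPM in WT Nac 1 and 3 and 4.11, 4.63 and 2.34 in STR (3.32, adjusted p = 0.00277), with means of 161 CPM in PFc and 126 CPM in HP. The mean of WT Nac 1 and 3 was the highest of the 6 regions in 141 of the 464 genes (30.4%, and 12.8% of all genes). These shares are not alike, because the 464 were chosen as higher in Nac than in STR. All genes include 7633 that were lower in Nac and so could hardly have their highest mean there. The gap between the shares therefore does not show that the 464 favour Nac over the other regions. The VTA mean in this count includes WT VTA 3, a library with striatal markers.

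WT Nac 1 and 3 also differed from each other. Zic1, a transcription factor of septal and medial forebrain neurons, was at 274 CPM in WT Nac 1 and 49.8 CPM in WT Nac 3, against 78.4, 198 and 186 CPM in STR. The 12 septal and basal forebrain markers summed to 590 and 197 CPM in the same libraries, against 193 to 367 CPM in STR. In WT Nac 2 they summed to 103 CPM, with 2 at 0. One member, Ngfr, the low-affinity neurotrophin receptor of basal forebrain cholinergic neurons, fell by 1.54 (adjusted p = 0.00839). It was at 15.1, 13.1 and 13.4 CPM in STR and 4.52, 2.88 and 4.85 CPM in Nac, and passed with 6 libraries (−1.72, adjusted p = 0.0272). On leaving out 1 of the 5 libraries, its log2 fold change was −1.59 to −1.46. Ngfr is not among the named genes that stayed called on leaving out each library in turn.

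The genes that define striatal projection neurons as a whole gave little difference past the test. Of the 22 shared genes, 1 was called (3.15% of all genes rose), Gpr149, an orphan receptor that rose by 1.15 (adjusted p = 0.0405). The median of the 22 was 0.29, and −0.12 with 6 libraries. Ppp1r1b, the phosphatase regulator DARPP-32, was at 1174 and 1167 CPM in WT Nac 1 and 3, 40.6 CPM in WT Nac 2, and 2204, 771 and 999 CPM in STR. The STR libraries thus spanned the Nac level, with WT STR 1 above and WT STR 2 below it. The log2 fold change was −0.17, with a 95% interval from −1.18 to 0.85, so differences of about that size in either direction could not be told from 0. Drd1 (0.40, interval −0.66 to 1.46), Drd2 (−0.13, −1.28 to 1.02), Penk (0.13, −1.13 to 1.39) and Cnr1, the cannabinoid receptor (−0.08, −0.84 to 0.67), likewise did not pass. WT STR 1 was the highest STR library and WT STR 2 the lowest for each of these genes. Without WT STR 1, 20 of the 22 shared genes were higher in Nac and 5 rose, at a median of 0.64. In that fit 516 of 14677 genes rose. No member of the direct (10 genes) or indirect (10 genes) pathway lists was called by edgeR in either fit. The smallest adjusted p with 5 libraries was 0.0503, for Sp9, 3 members of each list had an unadjusted p under 0.05 (0 and 1 with 6 libraries), and DESeq2 called 1 member of each list higher with 5 libraries and none with 6.

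Among 8 genes reported to favour the dorsal and lateral striatum, 1 fell (4.54% of all genes fell), at a list median of −0.18. Coch (gene 12810, chromosome 12, 51593283 to 51606619), an extracellular protein known from the inner ear, was at 107, 54.3 and 96.8 CPM in WT STR 1 to 3 and at 16.5, 11.7 and 12.1 CPM in WT Nac 1 to 3. No Nac library came near the STR range. It fell by 2.57 (SE 0.342, adjusted p = 0.011), and with 6 libraries by 2.64 (adjusted p = 0.0125). On leaving out 1 of the 5 libraries, its log2 fold change was −2.82 to −2.34. Coch is not among the named genes that stayed called on leaving out each library in turn. Crym, a thyroid hormone binding protein often used as a marker of medial and ventral striatum, did not separate the groups, at 157 and 255 CPM in WT Nac 1 and 3, 1.75 CPM in WT Nac 2, and 157, 73.7 and 43.0 CPM in STR (1.18, interval −0.01 to 2.38, adjusted p = 0.198).

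Choroid plexus genes, all lower in Nac, had the largest median difference of the lists. All 20 genes of that list were lower, 19 fell (4.54% of all genes were called lower), and the median log2 fold change was −5.42. With 6 libraries 15 fell (1.03% of all genes) at a median of −5.53. On leaving out any 1 of the 5 libraries, 16 to 20 fell. Most members were near 0 in Nac and passed the filter on low counts through the STR libraries. Summed over the list, STR held 15260, 22630 and 16440 CPM and Nac 412, 604 and 416 CPM, with no member at 0. Ttr (gene 22139), transthyretin, the thyroid hormone carrier secreted by choroid plexus, accounted for most of the sum in STR and little of it in Nac, with 11550, 16429 and 10993 CPM in WT STR 1 to 3 and 57.1, 14.2 and 47.0 CPM in WT Nac 1 to 3. It fell by 7.94 on the log2 scale (SE 0.296, adjusted p = 0.000236), and with 6 libraries by 8.31 (adjusted p = 0.00363). Its length-scaled level in STR averaged 41550 TPM.

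Ion transport genes of the secreting epithelium followed. Kcne2 (gene 246133), a potassium channel subunit, was at 66.6, 91.0 and 68.3 CPM in STR and 0.226, 0.169 and 0.346 CPM in Nac (−7.98, SE 0.296, adjusted p = 0.000236). Kcnj13, the potassium channel Kir7.1, was at 57.8, 91.3 and 78.6 CPM in STR and 0.622, 0.395 and 0.635 CPM in Nac (−6.87, adjusted p = 0.000346). Slc4a5, a sodium bicarbonate cotransporter, was at 31.4, 64.0 and 56.1 CPM in STR and under 0.51 CPM in each Nac library (−7.72, adjusted p = 0.00158). Cldn2, a tight junction protein of leaky epithelia, fell by 6.10, and Folr1, a folate receptor, by 5.83. The 1 member that missed the threshold, Aqp1, the water channel of the epithelium, was at 47.4, 62.3 and 48.4 CPM in STR and at 0.792 and 11.5 CPM in WT Nac 1 and 3 (−3.09, adjusted p = 0.0642).

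The promoters of both potassium channel genes are shown because they are members with a level near 0 in every Nac library and hold the motif searched above. Each is the 250 bases before a RefSeq transcript start in GRCm38.p6, with the same half-site TGACG on either strand in capitals. Kcne2, whose more distal start is given because the other RefSeq start holds no match, has 2, beginning 222 and 118 bases before the start, and Kcnj13 has 1, 195 bases before it.
Kcne2 promoter, chr16:92292139-92292388, plus strand: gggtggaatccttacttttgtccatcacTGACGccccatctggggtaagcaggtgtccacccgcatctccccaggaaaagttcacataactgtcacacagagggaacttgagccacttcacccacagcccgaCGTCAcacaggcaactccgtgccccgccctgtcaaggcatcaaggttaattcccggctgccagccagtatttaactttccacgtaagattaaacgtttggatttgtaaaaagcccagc
Kcnj13 promoter, chr1:87394730-87394979, minus strand: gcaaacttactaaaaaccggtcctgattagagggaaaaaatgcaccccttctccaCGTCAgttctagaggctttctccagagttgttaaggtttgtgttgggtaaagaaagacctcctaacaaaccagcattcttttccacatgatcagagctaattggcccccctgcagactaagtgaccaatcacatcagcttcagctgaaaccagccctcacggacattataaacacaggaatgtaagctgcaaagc
Of 15 choroid plexus genes with a promoter in the table, 4 held the half-site and none the complete element. TAATCC, the core recognised by OTX factors, was found in 1 of the 15 and in 7.21% of all genes, searched on both strands.

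Other named genes were also close to 0 in Nac. Sult1c2, a sulfotransferase, had no count in any Nac library and 1.97, 5.06 and 3.85 CPM in STR, so it was at least 42.5-fold lower in Nac against a floor of 3 counts over WT Nac 1 and 3. Wfdc2, a secreted epithelial protein, had 2 counts over WT Nac 1 and 3 and 603 over the STR libraries, a ratio of 195 with an exact 95% counting interval of 53.8 to 1614. Atp2a1, a calcium pump, had 1 count over the same Nac libraries (ratio 264, interval 47.1 to 10450), but 2.09 CPM in WT Nac 2. These intervals cover counting error only. Igf2, the growth factor made by choroid plexus and meninges, was at 379, 464 and 324 CPM in STR and 25.4, 35.8 and 32.3 CPM in Nac. It fell by 3.73 (SE 0.219, adjusted p = 0.00118), and with 6 libraries by 3.60 (adjusted p = 0.00149). It was the 1 gene called by edgeR among 11 of meningeal fibroblasts, where DESeq2 called 5, all lower. Of all genes edgeR called 4.54% lower and DESeq2 6.95%. Kcne2, Ttr, Slc4a5, Wfdc2, Kcnj13, Cox8b, Tmem72, Prr32, Cldn2, Wdr86 and Igf2 were the 11 named genes called under every alternative run, and all 11 were lower in Nac. When choroid plexus and ependymal genes were removed before normalisation, 1119 genes were called with 5 libraries and 171 with 6. Of 12 ependymal genes, which mark the ciliated lining of the ventricle, all were lower and none passed edgeR's test in either fit. An unadjusted p under 0.05 was reached by 3 with 5 libraries and 4 with 6, and DESeq2 called 2 and 3. They summed to 149, 54.0 and 36.1 CPM in WT Nac 1 to 3 and to 126, 306 and 148 CPM in STR, so WT Nac 1 lay inside the STR range.

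Thalamic genes were lower in Nac as well. All 13 were lower in both fits, and without WT Nac 2, 7 fell (4.54% of all genes fell) at a median of −2.16, whereas with 6 libraries edgeR called none (median −1.51, 9 with an unadjusted p under 0.05) and DESeq2 6. Without WT Nac 1 or without WT Nac 3 edgeR called none of the 13, and 12 and 9 had an unadjusted p under 0.05. Tcf7l2, a transcription factor of thalamic neurons, was at 52.8, 96.0 and 113 CPM in STR, 7.64 and 11.6 CPM in WT Nac 1 and 3, and 115 CPM in WT Nac 2 (−3.16, SE 0.371, adjusted p = 0.00816, and −0.94 with 6 libraries, adjusted p = 0.686). Rgs16, a regulator of G protein signalling, was at 53.9, 69.1 and 113 CPM in STR and 9.22 and 11.9 CPM in WT Nac 1 and 3 (−2.88, adjusted p = 0.00839). Lef1, a partner of Wnt signalling, was at 20.6, 26.6 and 41.3 CPM and 3.68 and 4.50 CPM (−2.82, adjusted p = 0.00826). The list summed to 617, 1189 and 1877 CPM in WT STR 1 to 3, to 362 and 184 CPM in WT Nac 1 and 3 and to 829 CPM in WT Nac 2, with no member at 0 in any of them. Shox2, a homeobox gene of thalamic and midbrain neurons that is not on the list, was at 36.1, 70.2 and 105 CPM in STR and 0.226 and 0.231 CPM in WT Nac 1 and 3 (−8.20, SE 0.691, adjusted p = 0.00296). WT Nac 2 had 32.3 CPM of it, and with 6 libraries the value was −2.67 (adjusted p = 0.445). The part of thalamic tissue in the STR libraries was not tested.

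Among interneuron genes, 1 of 16 rose and 2 fell, beside 3.15% and 4.54% of all genes. Pvalb, the calcium buffer of fast-spiking interneurons and also of thalamic reticular neurons, was at 293, 319 and 279 CPM in STR and 16.2 and 25.3 CPM in WT Nac 1 and 3. The STR libraries spanned a narrow range far above both. It fell by 3.82 (SE 0.225, adjusted p = 0.00118). WT Nac 2 had 153 CPM, and with 6 libraries the value was −2.17 (adjusted p = 0.251). The other fall, Gbx2, a transcription factor of thalamic and cholinergic neurons, was at 5.85, 13.1 and 12.3 CPM in STR and 1.36 and 3.23 CPM in WT Nac 1 and 3 (−2.15, adjusted p = 0.0448). Sst, which marks another interneuron class, was at 163 and 214 CPM against 238, 176 and 144 CPM (0.03, adjusted p = 0.945), and Chat, of cholinergic interneurons, at 5.88 and 9.01 CPM against 14.6, 5.55 and 10.03 CPM (−0.42, adjusted p = 0.573). Chrna4, a nicotinic receptor subunit, fell by 1.78 (adjusted p = 0.0195), with 25.0 and 22.7 CPM against 55.7, 82.1 and 112 CPM, while WT Nac 2 had 142 CPM.

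Glia differed in part. All 15 genes of mature oligodendrocytes, the myelinating cells, were lower in Nac and 9 fell (4.54% of all genes fell), at a median of −0.95, and with 6 libraries none was called by edgeR (5 had an unadjusted p under 0.05) and 1 by DESeq2 (median −0.61). Without WT Nac 1 or without WT Nac 3 edgeR called none of the 15, and 9 and 13 had an unadjusted p under 0.05. Trf, transferrin, was at 1822, 1466 and 1612 CPM in STR, 507 and 642 CPM in WT Nac 1 and 3, and 1512 CPM in WT Nac 2 (−1.49, SE 0.175, adjusted p = 0.00816). Mag, an adhesion protein of the inner myelin wrap, was at 897, 671 and 727 CPM against 257 and 330 CPM, with 713 CPM in WT Nac 2 (−1.36, adjusted p = 0.0135). Mbp, a main protein of compact myelin, did not pass, at 5716, 5451 and 5108 CPM against 4013 and 5221 CPM (−0.21, adjusted p = 0.424). Of 14 astrocyte genes, the glutamate transporters Slc1a2 and Slc1a3 rose and Agt, angiotensinogen, fell, beside 3.15% and 4.54% of all genes. Slc1a3 was at 1143 and 787 CPM in WT Nac 1 and 3 against 394, 457 and 465 CPM (1.16, adjusted p = 0.019), and Agt at 35.6 and 31.2 CPM against 101, 134 and 110 CPM (−1.75, adjusted p = 0.00405). WT Nac 2 lay on the other side of STR for both, at 230 CPM of Slc1a3 and 183 CPM of Agt. None of 14 microglial, 15 endothelial and pericyte or 14 immediate early genes was called by edgeR in the 5-library fit, 1, 0 and 4 had an unadjusted p under 0.05, and DESeq2 called 1, 0 and 2.

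**Figure D3:**
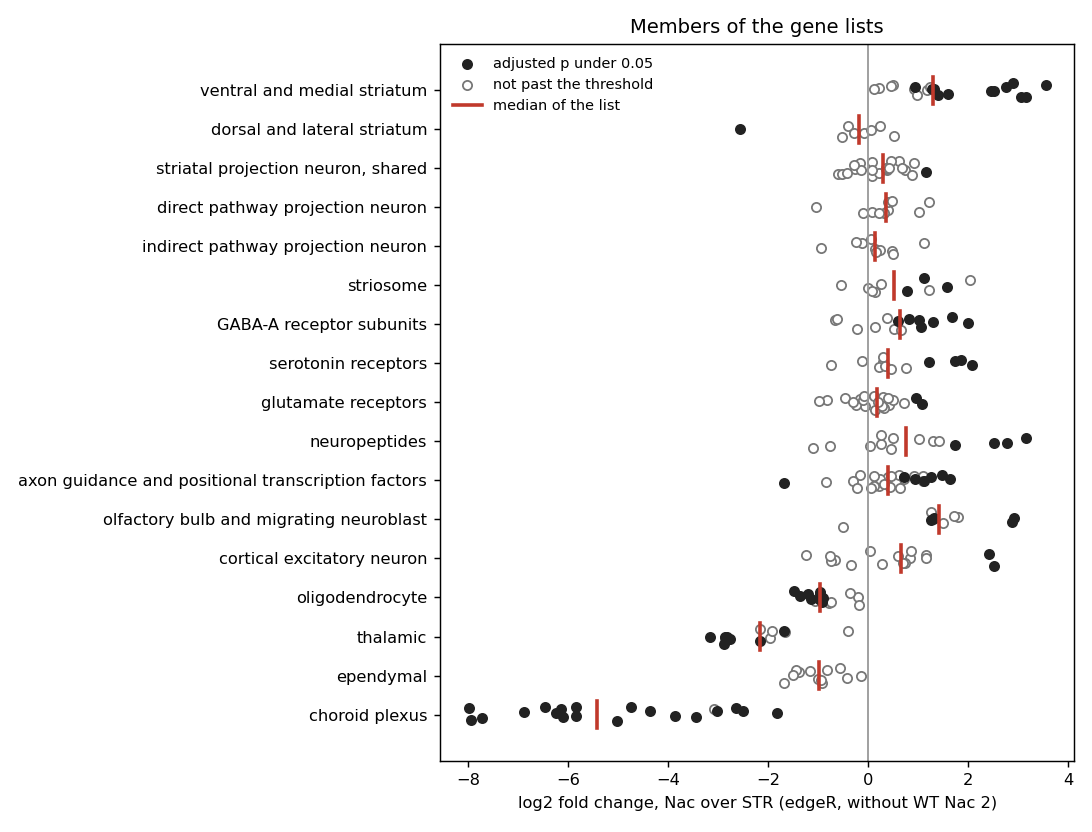
Log2 fold change, Nac over STR, of each tested member of 17 gene lists, from edgeR without WT Nac 2. Filled points have an adjusted p under 0.05, open points do not, and red bars are list medians, which run from −5.42 for choroid plexus and −2.16 for thalamic genes to 1.30 for ventral and medial striatum and 1.41 for olfactory bulb and neuroblast genes.

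Some falls were genes with high hippocampal levels. Of 10 such genes Prox1, C1ql2 and Dsp fell (4.54% of all genes fell). They are not among the named genes that stayed called on leaving out each library in turn. The log2 fold change then ranged from −2.01 to −1.35 for Prox1, −3.71 to −2.89 for C1ql2 and −4.75 to −3.61 for Dsp. Dsp, the desmosome protein desmoplakin, was at 4.72, 15.3 and 8.86 CPM in STR and 0.735, 0.790 and 0.346 CPM in WT Nac 1 to 3, with a mean of 60.2 CPM in HP (−4.10, adjusted p = 0.0171, and −3.89 with 6 libraries, adjusted p = 0.0256). C1ql2, a synaptic protein of dentate granule cells, was at 12.4, 36.6 and 18.2 CPM in STR, 1.81 and 2.25 CPM in WT Nac 1 and 3, and 45.4 CPM in WT Nac 2 (−3.43, adjusted p = 0.0156, and −0.42 with 6 libraries). The hippocampal list summed to 91.5, 283 and 144 CPM in STR, 84.2 and 109 CPM in WT Nac 1 and 3 and 286 CPM in WT Nac 2, with no member at 0, and its part in these falls was not tested.

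Libraries outside the comparison held the same order in part. Of the KI libraries, KI Nac 3, KI STR 1 and KI STR 2 carried the striatal markers of their label, with the 22 shared genes at 13790, 6473 and 5339 CPM. KI Nac 1 had 1223 CPM of these with midbrain dopamine markers at 3746 CPM, KI Nac 2 had 1850 CPM with hippocampal and cortical markers at 1242 and 2890 CPM, and KI STR 3 had 2038 CPM. KI Nac 3 was above both KI STR 1 and 2 in 405 of the 464 genes called higher in WT Nac (87.3%, and 43.4% of all genes tested). It was below both in 636 of the 669 called lower (95.1%, and 42.6% of all genes). Not every list held this order in its mean log2(CPM + 1). The ventral list did, at 5.78 in KI Nac 3 against 5.46 and 4.95 in KI STR 1 and 2. The olfactory bulb and neuroblast list was reversed, at 3.25 against 3.53 and 3.92. So was the guidance list, at 5.465 against 5.648 and 5.783. Neuropeptides lay between, at 3.12 against 3.60 and 2.98. With all 6 KI libraries, every KI Nac was above every KI STR library in 46 of the 464 (9.91%, and 5.54% of all genes) and below in 228 of the 669 (34.1%, and 7.61%). The library labelled WT VTA 3, which had 9425 CPM of the shared striatal genes and 140 CPM of midbrain dopamine markers, was above all 3 WT STR libraries in 452 of the 464 (97.4%, and 33% of all genes) and below them in 601 of the 669 (89.8%, and 31.7%). The library labelled WT Nac 2 was above all 3 in 252 (54.3%, and 32.6%) and below in 448 (67%, and 33.8%). These are single libraries, so no test was made, and WT STR is common to the last 2 counts and to the calls.

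Single genes show the same order and its exceptions. Drd3 was at 10.4 CPM in KI Nac 3 and 7.87 CPM in WT VTA 3, against 1.01 and 1.83 CPM in KI STR 1 and 2. Wfs1 was at 493 and 543 CPM against 135 and 91.3 CPM, and Kcne2 at 0.172 and 0.232 CPM against 64.9 and 68.8 CPM. Calcr was at 11.3 CPM in KI Nac 3 and 9.19 CPM in KI STR 1, and Crh was at 7.62 CPM in KI Nac 3 and 8.66 CPM in KI STR 1. Peg10 was at 157 CPM in KI Nac 3 and 164 CPM in KI STR 1. Those 3 genes, higher in WT Nac, were thus about as high in KI STR 1. Arhgap36, Irs4 and Gabrq, also called higher in WT Nac, were higher in KI STR 1 (35.9, 33.7 and 26.2 CPM) than in KI Nac 3 (21.1, 6.76 and 8.82 CPM). The 5 called olfactory bulb and neuroblast genes were split. Cdhr1 and Doc2g were at 7.62 and 3.15 CPM in KI Nac 3, below KI STR 1 (9.73 and 4.63) and KI STR 2 (12.8 and 9.09). Dcx, Sox11 and Dlx2 were at 34.3, 50.8 and 16.0 CPM in KI Nac 3. These were above KI STR 1 (17.9, 23.5 and 11.1) and KI STR 2 (20.5, 26.3 and 10.3).

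**Figure D4:**
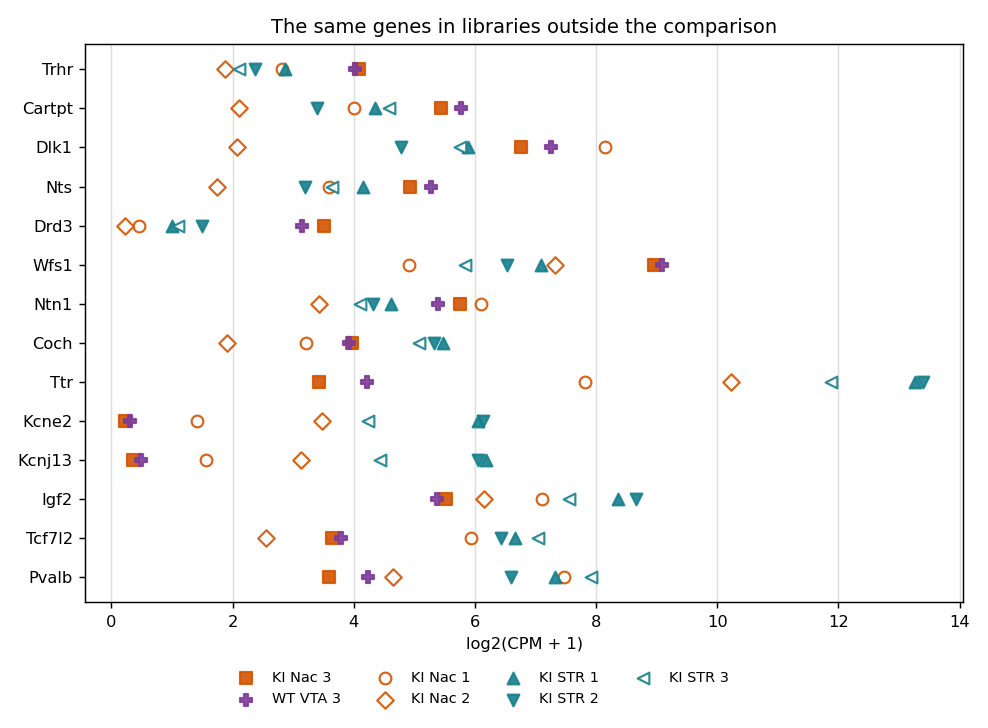
Level of 14 of these genes, as log2(CPM + 1), in libraries that took no part in the comparison. Filled marks are libraries with high striatal markers (KI Nac 3, KI STR 1 and 2, WT VTA 3) and open marks are KI Nac 1, KI Nac 2 and KI STR 3. KI Nac 3 and WT VTA 3 lie next to each other and apart from KI STR 1 and 2 for Drd3, Wfs1, Coch, Ttr, Kcne2, Kcnj13, Igf2, Tcf7l2 and Pvalb.

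Maoa, the gene edited in the KI mice of the series and the enzyme that breaks down serotonin and noradrenaline, was at 45.4 and 51.7 CPM in WT Nac 1 and 3, 80.6 CPM in WT Nac 2, and 43.6, 49.5 and 47.1 CPM in STR. WT Nac 1 and 3 lay on either side of most STR values. The log2 fold change was 0.08 (95% interval −0.21 to 0.37, adjusted p = 0.73), and with 6 libraries 0.38 (adjusted p = 0.448).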

How the data were processed

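The authors deposited estimated counts per gene, which need not be whole (9.88% of values were not), and these were rounded here before testing. They also deposited TPM per gene, per the file headers, used here only to set levels of different genes side by side. The build is GRCm38.p6 per the submitters' processing notes, and libraries were made with a SMARTER mRNA kit per the labels' protocols. No source used here names the aligner, the counting tool or the use of strand, so overlapping or near-identical genes are uncertain. A further 72 per-sample columns of the gene table were not used. Of 19025 gene identifiers, 18969 matched the RefSeq table of the same build, which gave coordinates, and promoters came from RefSeq.

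Genes were kept by filterByExpr, scaled by TMM and tested with edgeR 4.0.16 (quasi-likelihood, Benjamini-Hochberg, threshold 0.05) in R 4.3.3 with limma 3.58.1, on 6 libraries and on 5 without WT Nac 2. CPM values are not TMM-scaled except where libraries outside the comparison are counted above or below others. DESeq2 1.42.0, its size factors in edgeR, no low-count filter, removal of choroid plexus and ependymal genes, a fit of all WT regions, a replicate block and leaving out each library were alternatives. Without WT Nac 2, the fit of all WT regions also left out WT VTA 3. Scripts were tested on simulated data. Figures used Python 3.11.15 and matplotlib 3.10.9.

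The libraries compared and the 34 gene lists (414 genes) were chosen with earlier results of these data known. Named genes were the 15 largest rises and falls of the 5-library fit and the 5 largest of the 6-library fit among genes that were called, did not overlap between groups, averaged 1 or more in log2 CPM and had no predicted-gene symbol, with up to 6 called members per list, and Drd1, Drd2, Penk, Ppp1r1b, Crym, Cartpt, Cnr1, Maoa, Ttr, Th and Slc6a3. Other genes given were chosen after their values were seen. Some genes that the rule named are left out of the text.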

Additional observations from a re-analysis of the deposited data

How the results depend on the processing

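With 6 libraries, 189 genes were called; DESeq2 called 863, a fit of all WT regions 924 and the replicate block 58, and leaving out 1 library gave 41 to 1133. Without WT Nac 2, 1133 were called; DESeq2 called 2076 and a fit of all WT regions 2641, and leaving out 1 more library gave 91 to 1223. The fit of all WT regions that gave 2641 also left out WT VTA 3, which the one that gave 924 kept. Settings not given so far stayed within 1.5 times, including 835 with the replicate block and 5 libraries. No call of either fit changed sign in any alternative. The causes of these shifts were not tested. Same-numbered Nac and STR libraries deviated together at correlations of 0.07, 0.14 and −0.08, and WT Nac 3 correlated best with WT STR 1 (0.43). The Nac deviations were taken from a mean that includes WT Nac 2. These correlations therefore cannot decide whether the same number stands for the same animal. DESeq2 moved the share of calls higher in Nac from 20.6% to 46% with 6 libraries, a fit of all WT regions moved it to 40.4% and the replicate block to 12.1%. On leaving out 1 library it was 6.41% (without WT STR 1) to 41% (without WT Nac 2) with 6 libraries, and 25.3% (without WT Nac 3) to 52.8% (without WT STR 3) with 5, where it was 41%. None of the 91 called named genes reversed, but the rule chose some of them for groups that did not overlap, where a reversal was unlikely beforehand. Uncalled genes that turned sign were Drd1 with WT Nac 2 (−0.14), Drd2 on leaving out 1 library (−0.47 to 0.53, the latter without WT STR 1), Penk with the replicate block (−0.073), with WT Nac 2 (−0.35) and on leaving out 1 library (−0.21 without WT STR 2 to 0.91 without WT STR 1), Ppp1r1b (−0.44 without WT STR 2 to 0.44 without WT STR 1), Cnr1 (−0.32 without WT STR 2 to 0.24 without WT STR 1) and Th (−0.22 without WT Nac 3 to 1.26 without WT Nac 1). Adding WT Nac 2 back to the named genes was chosen after seeing the data. Where 1 Nac library is left, it is assumed to vary like the STR libraries. Genes under 1 CPM rest on under 20 reads per library, and a Nac group of 2 or 3 libraries limits the size of difference that can be called.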
